A study of Mus musculus with 8 samples.

Results

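The 35 genes described here encode the enzymes of glycolysis, of glycogen synthesis and glycogen breakdown, and the enzymes that set the level of fructose bisphosphates. They were chosen by symbol from a table of 16686 genes measured by RNA-seq in tibialis anterior (TA) muscle, a mostly fast-twitch muscle of the lower hind limb. TA muscle was taken from 4 male wild-type mice on the FVBN background (WT) and 4 male *Mybpc2* knockout mice on the same background (C2-/-), all 22 months old by their labels, although another label entry gives a much younger age. *Mybpc2* encodes fast myosin-binding protein C (fMyBP-C), a thick-filament protein of fast fibres, and in the C2-/- mice its exons 2 to 22 had been replaced by a Neo cassette between LoxP sites, so that every cell of the mouse carried the deletion. Each library came from 1 mouse, and whether the WT mice were littermates was not given in the sources used here. The comparison asked whether the loss of fMyBP-C went with a different level of these genes in old fast muscle.

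Glycolysis splits glucose to pyruvate and yields ATP without oxygen, and fast fibres rely on it for short, forceful contractions. Glycogen is the glucose store of the fibre, which glycogen phosphorylase opens on contraction and glycogen synthase refills afterwards. Many steps have several isoenzymes encoded by separate genes. Adult skeletal muscle mainly uses *Hk2*, *Pfkm*, *Aldoa*, *Pgam2*, *Eno3*, *Ldha* and *Pygm*, whereas *Hk1*, *Pfkl*, *Pfkp*, *Aldoc*, *Pgam1*, *Eno1*, *Eno2*, *Ldhb* and *Pygb* are the leading forms of other tissues such as liver, brain or heart.

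The sequences before the transcription start show how the genes for the same reaction differ outside their coding part. All 35 genes had at least 1 start in the RefSeq promoter table of GRCm38.p6, 51 starts in all. The pairs printed here, for phosphoglycerate mutase and glycogen phosphorylase, are 2 examples with a single start for each gene, chosen with their sequences known, and other pairs differ less or the other way. Each line gives the 250 bases before the start, 5′ to 3′ on the strand of the gene, and capitals mark the E-box motif CANNTG, the letters that myogenic factors such as MyoD can bind.
Pgam2: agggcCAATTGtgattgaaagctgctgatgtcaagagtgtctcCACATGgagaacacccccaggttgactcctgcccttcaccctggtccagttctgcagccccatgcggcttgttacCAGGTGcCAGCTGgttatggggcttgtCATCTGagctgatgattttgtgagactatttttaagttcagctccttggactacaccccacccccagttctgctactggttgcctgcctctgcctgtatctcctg
Pgam1: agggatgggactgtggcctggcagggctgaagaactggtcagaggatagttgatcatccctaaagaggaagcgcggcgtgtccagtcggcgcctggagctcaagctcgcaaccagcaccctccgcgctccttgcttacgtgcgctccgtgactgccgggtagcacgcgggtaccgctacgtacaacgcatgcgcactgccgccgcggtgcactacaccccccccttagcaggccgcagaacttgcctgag
Pygm: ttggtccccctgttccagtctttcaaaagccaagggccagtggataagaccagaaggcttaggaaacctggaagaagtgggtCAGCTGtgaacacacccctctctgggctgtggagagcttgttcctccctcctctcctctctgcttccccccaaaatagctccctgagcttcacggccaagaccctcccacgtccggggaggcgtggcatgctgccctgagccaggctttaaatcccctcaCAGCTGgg
Pygb: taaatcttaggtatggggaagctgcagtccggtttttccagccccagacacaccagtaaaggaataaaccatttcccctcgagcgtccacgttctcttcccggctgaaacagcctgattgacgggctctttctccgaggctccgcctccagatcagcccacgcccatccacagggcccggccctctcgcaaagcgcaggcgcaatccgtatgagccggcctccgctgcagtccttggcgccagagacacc

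The *Pgam2* stretch is at chr11:5803797-5804046 on the minus strand, that of *Pgam1* at chr19:41911621-41911870 on the plus strand, that of *Pygm* at chr19:6384158-6384407 on the plus strand and that of *Pygb* at chr2:150786546-150786795 on the plus strand. The *Pgam2* stretch held 5 E-box matches and 1 CG dinucleotide, against 0 matches and 22 CG dinucleotides in that of *Pgam1*. The *Pygm* stretch held 2 matches and 4 CG dinucleotides, against 0 and 17 for *Pygb*. CANNTG reads the same on both strands and occurs in 66.2% of all 32851 windows of this length. It occurred in 11 of the 13 windows of the 7 muscle forms, in 5 of the 13 windows of the 9 other isoenzymes and in 36 of all 51 member windows. *Eno3* and *Eno2*, which also have a single start each and differ 2632 to 25635 times by TPM, held 1 match each, and the *Hk2* window held 0 against 1 and 2 in the windows of *Hk1*. The GC box GGGCGG, searched on both strands, occurred in 4 of 13 windows of either class and in 32.7% of all windows. Windows of a gene with several starts can overlap, and a match of these letters is a description of the sequence only.

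Total counts lay between 25425993 and 29747692 per mouse, so that 3 counts, taken as the smallest level that can be told from 0, correspond to 0.101 to 0.118 CPM (counts scaled to a common library total), a limit that covers counting error only. Levels within a gene are given as CPM with TMM scaling, and levels between genes as the authors' TPM, which are scaled by transcript length. *Mybpc2* (chr7:44501699-44524715) was at 4963, 5447, 5099 and 7389 CPM in WT 1 to 4 and at 4.35, 4.02, 38.3 and 3.85 CPM in C2-/- 1 to 4, so that C2-/- 3 stood apart from the other knockouts. The fast fibre markers *Myh4*, *Myh1*, *Actn3*, *Pvalb*, *Mylpf*, *Tnnt3*, *Tnni2* and *Tnnc2* summed to between 85968 and 132513 CPM in WT and between 96356 and 120450.0 CPM in C2-/- muscle, while 7 slow fibre markers summed to between 45.2 and 84.4 CPM in WT and between 44.1 and 60.1 CPM in C2-/- muscle. Of these 7, *Myl2* and *Myh7* had an unadjusted p under 0.05, against 5.29% of all tested genes. Both had lower means in C2-/- muscle (log2 fold changes −1.66 and −2.47, edgeR, unadjusted p = 0.00402 and 0.0322, adjusted p = 0.615 and 0.914). *Myh7* was at 2.62, 0.365, 2.05 and 20.9 CPM in WT 1 to 4 and at 0.446 to 1.85 CPM in C2-/- muscle. Its log2 fold change ranged from −2.86 to −0.51 over the alternative settings. *Myl3*, *Tnnt1* and *Tnnc1* had log2 fold changes of −0.33, −0.95 and −1.04, and *Tnni1* and *Atp2a2* of 0.04 and 0.11. The *Myl2* levels of the groups did not overlap, at 1.34 to 4.12 CPM in WT and 0.372 to 0.970 CPM in C2-/- muscle. Of all tested genes, 3.38% had groups that did not overlap. The part of slow fibre content in the levels of the members was not tested. Blood markers summed to 483 to 6291 CPM in WT and 907 to 5883 CPM in C2-/- muscle. The 6 immediate early genes summed to 140 to 1486 and 140 to 950 CPM. *Dpt* of 4 fibro-adipogenic progenitor markers and *Tnmd* of 6 tested tendon markers alone of their lists had an unadjusted p under 0.05. Both had higher means in C2-/- muscle (edgeR, unadjusted p = 0.00537 and 0.0264, adjusted p = 0.647 and 0.882). Their part in the member levels was not tested. WT 2 stood apart, since it was the mouse farthest from the median of the 8 for 38.6% of the 12542 tested genes and for 16 of the 34 tested members. For that reason values without WT 2 or without C2-/- 3 are given beside several of the members and other genes whose values they move.

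The genes of this pathway took a large part of the muscle mRNA in every mouse. The 35 genes made up between 10.3% and 12.0% of all TPM in WT muscle and between 10.7% and 11.7% in C2-/- muscle, with means of 11.2% ± 0.716 and 11.4% ± 0.435 (SD, n = 4 each). *Aldoa*, which encodes the aldolase that splits fructose bisphosphate, was the second and *Gapdh*, the dehydrogenase of the next stage, the third most abundant mRNA of the table by TPM in all 8 libraries. *Aldoa* took between 3.82% and 4.26% of all TPM and *Gapdh* between 3.31% and 3.84%.

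By their mean TPM over the 8 mice, 11 members lay above 1000, 10 between 100 and 1000, 7 between 10 and 100 and 7 below 10. *Aldoa* (38212 to 42578 TPM) and *Gapdh* (33149.6 to 38411 TPM) led by a wide margin, although the ranges of the 2 genes touched. *Pygm*, the muscle glycogen phosphorylase, followed at 7415 to 9307 TPM. *Pgam2* (3739 to 6834 TPM) and *Eno3* (4264 to 6330.2 TPM) could not be placed in order beyond their spread, and neither could *Ldha*, *Pkm*, *Tpi1* and *Pfkm*, whose mean levels ran from 3352 down to 2482 TPM. *Gpi1* lay at 1234 to 1457 TPM, and *Pgk1* was the least abundant step after hexokinase, at 663 to 947 TPM. At the low end were *Pygb* (1.27 to 2.59 TPM), *Pfkp* (1.36 to 2.62 TPM), *Pgm1* (1.04 to 1.69 TPM), *Eno2* (0.240 to 1.62 TPM) and *Aldoc* (0.0300 to 0.610 TPM).

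**Figure D1:**
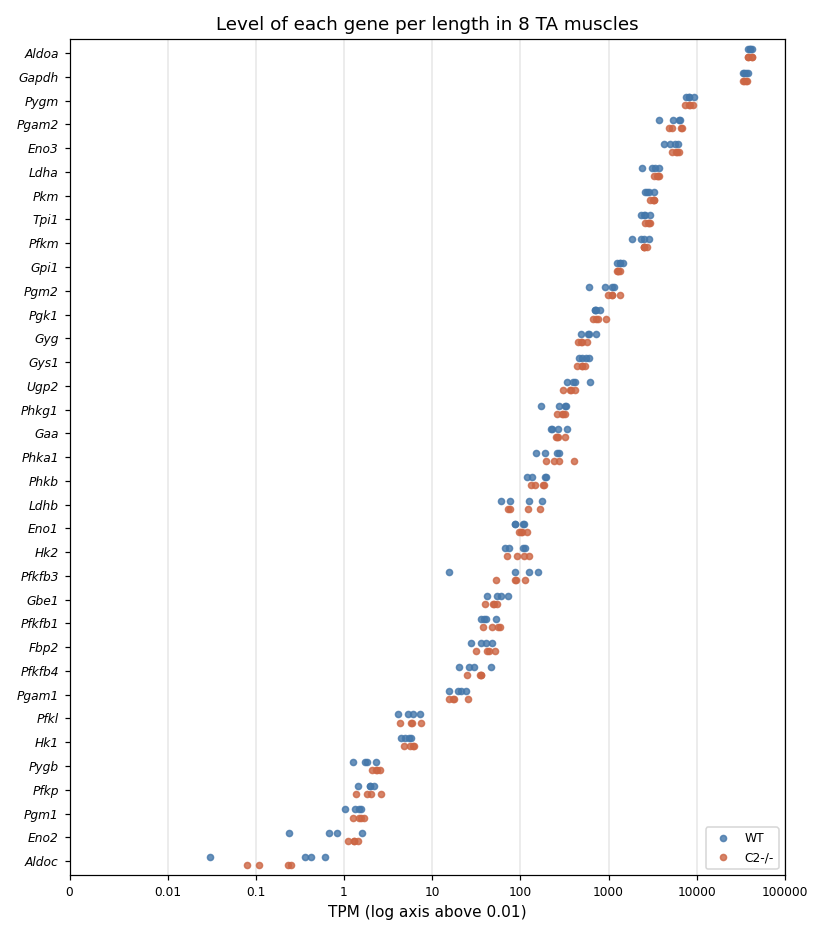
Level of each of the 35 genes in TPM (log axis above 0.01), with 1 point per mouse, WT in blue and C2-/- in orange, ordered by the mean of the 8 mice. *Aldoa* and *Gapdh* lie at 33149.6 TPM or more in every mouse, 7 genes have a mean under 10 TPM, and the 2 genotypes overlap for every gene.

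Where a step has several isoenzymes, the muscle form made up nearly all of its mRNA, and its share did not differ detectably between the genotypes. *Hk2*, the insulin-responsive hexokinase, held between 92.5% and 96.3% of the summed TPM of *Hk1* and *Hk2*. *Pfkm* held between 99.5% and 99.8% of the phosphofructokinase mRNA, *Pgam2* between 99.4% and 99.7% of that of phosphoglycerate mutase, and *Eno3* between 97.4% and 98.6% of that of enolase. *Ldha*, the subunit that favours lactate formation, held between 94.7% and 98.1% of the lactate dehydrogenase mRNA. *Aldoa* and *Pygm* held over 99.9% of the mRNA of their steps. Expressed as a ratio of TPM, *Pgam2* exceeded *Pgam1* between 155 and 375 times, and *Pygm* exceeded *Pygb* between 3389 and 6464 times, which are the pairs whose upstream sequences are printed above.

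The largest difference of a mean share was that of *Ldha*, at 96.7% ± 1.41 in WT and 97.0% ± 1.18 in C2-/- muscle (SD, n = 4 each), with an exact permutation p of 0.771. The smallest exact permutation p of the 7 steps was that of *Pygm*, 0.114, where the share was 99.978% in WT and 99.972% in C2-/- muscle. After Benjamini-Hochberg adjustment over the 7 steps no p was under 0.7, and 4 mice against 4 allow no two-sided exact permutation p under 0.0286. The *Pgam2* share was lowest in WT 2 (99.357%), and so were the *Pfkm*, *Eno3* and *Hk2* shares (99.5%, 97.4% and 92.5%).

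Of the 34 members that passed the filter on low counts, none was called different between C2-/- and WT muscle by edgeR's quasi-likelihood test with an adjusted p under 0.05 and over 1.5-fold, against 0.0319% of all 12542 tested genes. With an unadjusted p under 0.05 the count of members was also 0, against 5.29% of all tested genes. In no member did the CPM of the 2 groups fail to overlap, against 3.38% of all tested genes. DESeq2 and limma-voom without sample weights, run on the same counts, also gave 0 members in either count. *Aldoc*, the brain aldolase, did not pass the filter and was not tested, with between 0.0385 and 0.905 CPM in WT and between 0.104 and 0.355 CPM in C2-/- muscle, of which the lowest WT value is under the level of 3 counts.

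The measured differences were small and went both ways. The median log2 fold change of the 34 members was 0.02, against −0.02 for all tested genes, with 18 members higher and 16 lower in C2-/- muscle. That split depended on the scaling, with 22 members higher by library totals alone and 24 higher by totals without the 50 most counted genes. The median size of the log2 fold change was 0.083 for members and 0.133 for all tested genes, and the median standard error for members was 0.17. The 95% confidence interval lay within 1.5-fold in either direction for 23 of 34 members, against 53.0% of all tested genes, and within 2-fold for 32. The members were not matched to the other genes by level, so these comparisons do not show that they were steadier than genes of like level. The 2 members with wider intervals were *Eno2* and *Pfkfb3*. A p above the threshold does not show that the groups were alike, and these intervals give the differences that the 8 mice leave possible.

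**Figure D2:**
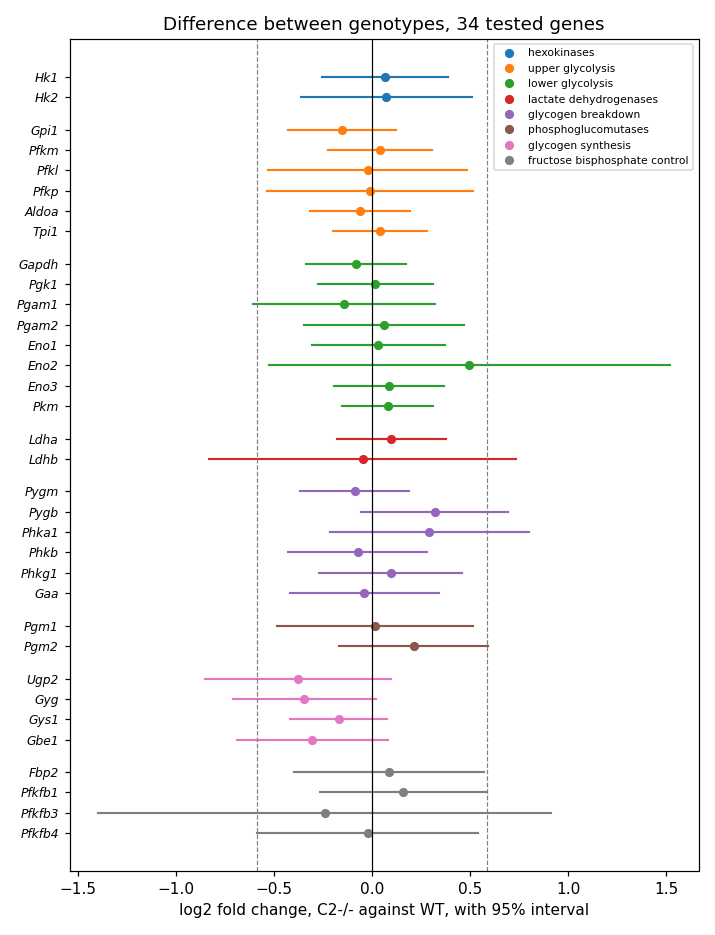
Log2 fold change of the 34 tested genes, C2-/- against WT, as points with their 95% confidence intervals, grouped and coloured by role, with dashed lines at 1.5-fold in either direction. All 4 glycogen synthesis genes have points below 0, and every interval includes 0.

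Hexokinase traps glucose in the fibre as glucose 6-phosphate. *Hk2* (chr6:82725025-82774454) was at 229, 218, 300.2 and 346 CPM in WT 1 to 4 and at 214, 308, 367 and 262 CPM in C2-/- 1 to 4. *Hk2* exceeded *Hk1* between 12.3 and 26.1 times by TPM. *Hk1* was at 12.2, 12.3, 9.41 and 9.52 CPM in WT and at 11.6, 11.8, 9.75 and 12.4 CPM in C2-/- muscle. The groups overlapped for both genes, with log2 fold changes of 0.07 ± 0.20 (SE) for *Hk2* and 0.07 ± 0.14 for *Hk1* and edgeR adjusted p-values of 0.990 and 0.987. Without C2-/- 3 the *Hk2* value was −0.06.

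In upper glycolysis, where 6-carbon sugars are prepared and split, 2 of the 6 tested genes were higher and 4 lower, with log2 fold changes between −0.15 and 0.04. *Pfkm* (chr15:98092589-98132447), the muscle phosphofructokinase and main control point of the chain, was at 3691, 3128, 4045 and 4007 CPM in WT and at 3924, 3930.2, 3833 and 3612 CPM in C2-/- muscle. Its log2 fold change was 0.04 ± 0.12 (edgeR, adjusted p = 0.990), and the fold change lay between 0.857 and 1.23 with 95% confidence. Without WT 2 the log2 value was −0.03. *Aldoa* (chr7:126795234-126800994) was at 30615, 31510.0, 28671 and 30457 CPM in WT and at 29098, 29019.7, 31118 and 26940.5 CPM in C2-/- muscle, a log2 fold change of −0.06 ± 0.12 (edgeR, adjusted p = 0.987).

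The gene of this group with the smallest p was *Gpi1*, which encodes the isomerase that turns glucose 6-phosphate into fructose 6-phosphate. It was at 2149, 2526, 1789.7 and 2165 CPM in WT and at 2032, 1944, 1899 and 1889 CPM in C2-/- muscle, so that the C2-/- mice lay close together inside the wider range of the WT mice. The log2 fold change was −0.15 ± 0.12 (edgeR, unadjusted p = 0.243, adjusted p = 0.968) and −0.06 without WT 2. *Pfkl* and *Pfkp*, the liver and platelet phosphofructokinases, were at 7.42 to 14.1 and at 2.45 to 4.77 CPM over the 8 mice with mean levels that were nearly equal in the groups. *Tpi1*, the triose isomerase, varied least between mice after *Aldoa*, *Pkm* and *Gapdh*, at 2045 to 2482 CPM. Of the bases in *Pfkp* exons, 5.58% are shared with exons of *Pitrm1* on the opposite strand, and whether counting used the strand was not given in the sources used here. *Pitrm1* had a median of 1430 counts, against 66 to 126 counts per mouse for *Pfkp*, and its part in the *Pfkp* counts was not tested. Larger parts were shared with exons of other genes on either strand in *Pkm* (15.3%), *Pgm2* (13.6%), *Gpi1* (11.5%), *Pfkm* (10.7%), *Phkg1* (9.68%) and *Gys1* (6.47%).

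Lower glycolysis turns the 3-carbon sugars into pyruvate and yields the ATP. Of its 8 genes, 6 were higher and 2 lower in C2-/- muscle, none past either threshold. *Pgam2* (chr11:5801637-5803796), the muscle phosphoglycerate mutase, was at 3091, 1923, 2654 and 2529.8 CPM in WT and at 3212, 2262, 3041 and 2117 CPM in C2-/- muscle. *Eno3* (chr11:70653125-70662513), the muscle enolase, was at 4074, 3740.0, 4496 and 4645 CPM in WT and at 4818, 4294, 4943 and 3925 CPM in C2-/- muscle. In both genes the lowest value was that of WT 2 and the highest that of a C2-/- mouse, and the groups overlapped. The log2 fold changes were 0.06 ± 0.18 for *Pgam2* and 0.08 ± 0.13 for *Eno3* (edgeR, adjusted p = 0.990 and 0.983), and without WT 2 they were −0.05 and 0.04.

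*Eno2*, the neuronal enolase, had the largest log2 fold change of all members, on few counts. It was at 1.002, 2.44, 0.336 and 1.12 CPM in WT and at 1.85, 1.82, 1.45 and 1.80 CPM in C2-/- muscle. The C2-/- mice were close together, while 3 WT mice lay below all of them and WT 2 lay above all of them. This gave a log2 fold change of 0.50 ± 0.46 (edgeR, unadjusted p = 0.306, adjusted p = 0.968). Without WT 2 it was 1.08 ± 0.39 with groups that did not overlap and an unadjusted p of 0.0187, and the edgeR adjusted p was 0.711. Without WT 2, 6.47% of all tested genes had groups that did not overlap and 5.90% an unadjusted p under 0.05, and *Eno2* was the single member in either count.

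*Gapdh* and *Pkm*, which encode the dehydrogenase that forms NADH and the kinase of the last step, had some of the narrowest intervals of the list. *Gapdh* lay between 24648 and 25760.4 CPM in WT and between 22337 and 26584 CPM in C2-/- muscle (log2 fold change −0.08 ± 0.12), and *Pkm* between 3583 and 3926 CPM in WT and between 3645 and 4136 CPM in C2-/- muscle (0.08 ± 0.10). *Pgk1*, the phosphoglycerate kinase, was at 609 to 771 CPM in 7 mice and at 907 CPM in C2-/- 3. *Eno1*, the widely expressed enolase, has a near-identical copy in the table, *Eno1b*, with 99.5% identity over 1652 bases, so that its counts of 2036 and more per mouse are uncertain against the 621 to 973 counts of the copy. Summing them left the number of members in each count at 0.

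Lactate dehydrogenase turns pyruvate into lactate, with *Ldha* as the muscle subunit and *Ldhb* as the heart subunit. *Ldha* (chr7:46842274-46855627) was at 2792, 2308, 2987 and 2964 CPM in WT and at 3193, 2843, 3140.0 and 2652 CPM in C2-/- muscle, a log2 fold change of 0.10 ± 0.13 (edgeR, adjusted p = 0.976). *Ldhb* varied more between mice than between genotypes, at 124, 46.3, 78.9 and 52.9 CPM in WT and at 116, 48.8, 49.1 and 79.2 CPM in C2-/- muscle. WT 1 and C2-/- 1 had the highest *Ldhb* levels, and also the highest sums of 4 Schwann cell markers, 79.8 and 61.0 CPM against 26.9 to 53.3 CPM in the other 6 mice. *Myh2*, the marker of oxidative type IIa fibres, was highest in WT 1 at 532 CPM, and at 312 CPM in C2-/- 1 within the range of the others. Their part in the *Ldhb* level was not tested.

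Glycogen breakdown starts with phosphorylase, which phosphorylase kinase switches on. *Pygm* (chr19:6384408-6398464) was at 12206, 14150.1, 11648 and 14858 CPM in WT and at 11740.3, 13167, 12393 and 12396 CPM in C2-/- muscle, a log2 fold change of −0.09 ± 0.12 (edgeR, adjusted p = 0.982). *Pygb* (chr2:150786796-150831748), the brain phosphorylase, had the smallest p of the 6 genes of breakdown. It was at 3.93, 2.95, 4.52 and 3.76 CPM in WT and at 4.43, 5.06, 4.93 and 4.51 CPM in C2-/- muscle, and the groups overlapped through WT 3. The log2 fold change of *Pygb* was 0.32 ± 0.17 (edgeR, unadjusted p = 0.0881, adjusted p = 0.968), and it was 0.22 without WT 2.

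The subunit genes of muscle phosphorylase kinase had log2 fold changes of either sign, none past either threshold. Each was lowest in WT 2 and highest in WT 4 among the WT mice. The *Phkb* values there were 399 and 593 CPM, and those of *Phkg1* 225 and 403 CPM. *Phka1*, the muscle alpha subunit, lay between 526 and 873 CPM in WT, and C2-/- 3 with 1260.4 CPM stood above the other C2-/- mice at 630.1, 825 and 751 CPM. Its log2 fold change of 0.29 ± 0.23 was 0.06 without C2-/- 3. *Phkb* and *Phkg1*, the beta subunit and the catalytic gamma subunit, had log2 fold changes of −0.07 ± 0.16 and 0.10 ± 0.16. *Gaa*, the lysosomal enzyme that degrades glycogen and is lost in Pompe disease, was at 714 CPM in WT 2 and between 409 and 572 CPM in the other 7 mice, and its log2 fold change of −0.04 was 0.15 without WT 2.

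Phosphoglucomutase joins glycogen and glycolysis by moving the phosphate of glucose between its positions. The table calls the abundant gene *Pgm2* (chr4:99929451-99987294, gene ID 72157) and the scarce one *Pgm1*, names that the RefSeq table uses the other way round. *Pgm2* was at 1185, 846, 1330.0 and 1392 CPM in WT and at 1263, 1272, 1682 and 1292 CPM in C2-/- muscle. The lowest value was that of WT 2 and the highest that of C2-/- 3, and the other 6 mice lay between 1185 and 1392 CPM. Its log2 fold change was 0.21 ± 0.17 (edgeR, unadjusted p = 0.240, adjusted p = 0.968), 0.09 without WT 2 and 0.11 without C2-/- 3.

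All 4 genes of glycogen synthesis had lower means in C2-/- than in WT muscle, although none passed either threshold. *Gyg* (chr3:20122083-20155117), which encodes glycogenin, the protein primer on which a glycogen particle is built, had the smallest p of all members. It was at 554, 727, 409.8 and 558 CPM in WT and at 466, 487, 401 and 417 CPM in C2-/- muscle. WT 3 lay within the C2-/- range and the other 3 WT mice lay above it. Its log2 fold change was −0.34 ± 0.16, with a fold change of 0.788 and a 95% interval from 0.612 to 1.01 (edgeR, unadjusted p = 0.062, adjusted p = 0.968).

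*Ugp2* (chr11:21321126-21371267), which makes the UDP-glucose that is added to glycogen, was at 655, 1055, 551 and 533 CPM in WT and at 572, 584, 558 and 440.1 CPM in C2-/- muscle. The WT 2 value was the highest of the 8, WT 1 lay above all C2-/- mice, and the other 2 WT mice lay among them. The log2 fold change of −0.38 ± 0.21 was the lowest of all members and became −0.10 ± 0.13 without WT 2. *Gbe1* (chr16:70313949-70569720), the branching enzyme, was at 120.1, 96.9, 89.2 and 68.8 CPM in WT and at 82.0, 82.9, 77.9 and 60.7 CPM in C2-/- muscle, where 3 of 4 WT mice lay above all C2-/- mice. *Gys1* (chr7:45434839-45456617), the muscle glycogen synthase, was at 1139.7, 1110.3, 1113 and 955 CPM in WT and at 1016, 939, 857 and 1025 CPM in C2-/- muscle, again with 3 of 4 WT mice above all C2-/- mice.

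The log2 fold changes were −0.31 ± 0.17 for *Gbe1* and −0.17 ± 0.11 for *Gys1* (edgeR, unadjusted p = 0.108 and 0.156, adjusted p = 0.968 for both). The median of the 4 synthesis genes was −0.32, against 0.03 for the 6 breakdown genes and −0.02 for all tested genes. Of all tested genes, 45.8% were higher in C2-/- muscle. Without WT 2 the log2 fold changes of *Gyg*, *Ugp2*, *Gbe1* and *Gys1* were −0.19, −0.10, −0.28 and −0.15, and without C2-/- 3 they were −0.29, −0.38, −0.31 and −0.11. All 4 stayed below 0 in every setting that was run, and the lowest edgeR adjusted p among those settings was 0.50, for *Gyg* without WT 3. The settings draw on the same 8 mice and are not independent of each other.

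**Figure D3:**
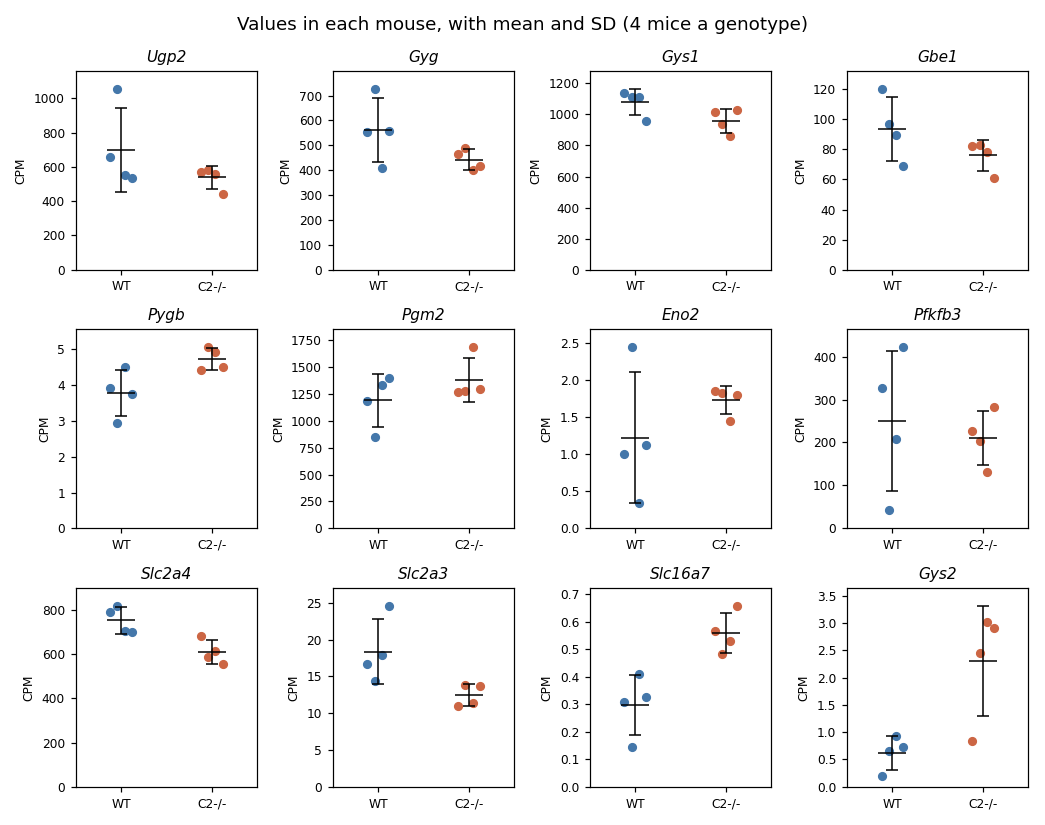
CPM in each mouse (points, WT in blue and C2-/- in orange) with mean and SD (black) for 8 members and 4 other genes of glucose handling. The groups of *Slc2a4*, *Slc2a3* and *Slc16a7* do not overlap, and those of the 8 members and of *Gys2* do.

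The last group sets the level of fructose 2,6-bisphosphate, which switches phosphofructokinase on, or runs the reverse reaction. *Pfkfb1*, the liver and muscle form of the bifunctional enzyme, had the smallest p of this group. It was at 41.4, 55.4, 34.1 and 35.1 CPM in WT and at 46.2, 52.9, 52.6 and 33.8 CPM in C2-/- muscle, a log2 fold change of 0.16 ± 0.19 (edgeR, unadjusted p = 0.425, adjusted p = 0.976). Without WT 2 it was 0.34 ± 0.16 (edgeR, unadjusted p = 0.0669, adjusted p = 0.874). *Pfkfb3*, the inducible form, varied most of the tested members. It was at 326, 43.0, 208 and 422 CPM in WT and at 227, 204, 131 and 282 CPM in C2-/- muscle, a 9.81-fold range with WT 2 at the bottom and WT 4 at the top.

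The log2 fold change of *Pfkfb3* was −0.24 ± 0.52, which leaves a fold change between 0.380 and 1.88 possible. The value moved with single WT mice, to −0.59 ± 0.27 without WT 2 (edgeR, unadjusted p = 0.0533, adjusted p = 0.847) and to 0.14 without WT 4. *Pfkfb4* was highest in WT 2 at 91.3 CPM and lay between 37.0 and 60.1 CPM in the other mice, with a log2 fold change of −0.02 ± 0.25 that became 0.32 ± 0.16 without WT 2 (edgeR, unadjusted p = 0.0671, adjusted p = 0.874). *Fbp2*, the muscle fructose bisphosphatase, lay between 19.0 and 35.7 CPM in WT and between 20.2 and 35.6 CPM in C2-/- muscle, with a log2 fold change of 0.09 ± 0.22 and of 0.27 ± 0.20 without WT 2.

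The spread between mice was larger than the difference between genotypes for most members, and much of it came from 1 WT mouse. Of the 16 members in which WT 2 was farthest from the median, 8 were above it (*Gpi1*, *Pfkl*, *Pgam1*, *Eno1*, *Gaa*, *Ugp2*, *Gyg* and *Pfkfb4*) and 8 below it (*Pfkm*, *Pgam2*, *Eno3*, *Ldha*, *Pygb*, *Phkg1*, *Pgm2* and *Pfkfb3*). The lower group holds 4 of the 7 muscle isoenzymes. Without WT 2 the median standard error of the members was 0.14 in place of 0.17, 19 members were higher and 15 lower, and none was called. Without C2-/- 3, 16 were higher and 18 lower, and none was called or had an unadjusted p under 0.05.

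**Figure D4:**
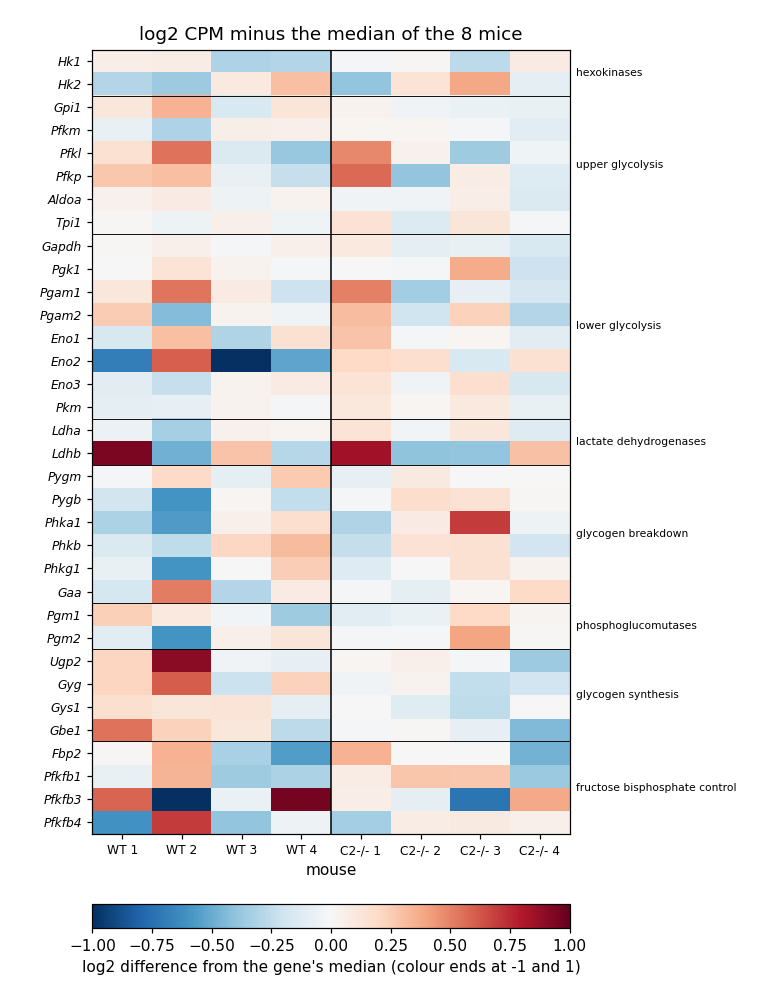
Log2 CPM of the 34 tested genes (rows, by role) in each mouse (columns) minus the median of the 8 mice, from blue (lower) to red (higher), with the colour scale ending at −1 and 1. The column of WT 2 holds most of the strongest colours, and in no row do all WT mice lie on one side of all C2-/- mice.

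The coefficient of variation over the 8 mice was 5.12% for *Aldoa*, 5.58% for *Pkm* and 5.96% for *Gapdh*, and reached 41.8% for *Ldhb*, 43.9% for *Eno2* and 50.5% for *Pfkfb3*. The tested genes outside the list whose log2 CPM followed the mean of the 7 muscle isoenzymes most closely over the 8 mice were *Mtif2*, *Spop*, *Osbpl3*, *Amd2* and *Lman1*, with Pearson correlations between 0.952 and 0.964. These are the highest of the tested genes over 8 libraries that share their scaling, and they are a description only.

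Of 86 other genes that bring glucose, lactate and pyruvate in and out of the fibre or act beside the listed enzymes, 83 were in the table and 76 were tested. None was called, 6 had an unadjusted p under 0.05, against 5.29% of all tested genes, and 35 were higher and 41 lower in C2-/- muscle. Among them were *Slc2a3*, *Slc2a4* and *Gpd1l*, with lower means, and *Gys2* and *Slc16a7*, with higher means in C2-/- muscle. The groups of 3 of the 76 did not overlap, against 3.38% of all tested genes.

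*Slc2a4* (chr11:69942286-69948216) encodes GLUT4, the insulin-responsive glucose transporter of muscle. It was at 791, 817, 701 and 699 CPM in WT and at 680.3, 584, 614 and 556 CPM in C2-/- muscle, so that every WT mouse lay above every C2-/- mouse. Its log2 fold change was −0.30 ± 0.11 (edgeR, unadjusted p = 0.0205, adjusted p = 0.849) and −0.26 without WT 2. *Slc2a3* (GLUT3), a transporter best known from neurons, was at 16.7, 14.3, 17.8 and 24.6 CPM in WT and at 11.01, 13.8, 11.3 and 13.7 CPM in C2-/- muscle, also without overlap (log2 fold change −0.56 ± 0.17, edgeR, unadjusted p = 0.00883, adjusted p = 0.732). Of the 6 tested glucose transporters, 5 had lower and 1 a higher mean in C2-/- muscle, and 45.8% of all tested genes were higher. The log2 fold change of *Slc2a1* was −0.53 ± 0.34, and −0.003 ± 0.17 without WT 2. Those of *Slc2a8* and *Slc2a12* were −0.10 ± 0.12 and −0.08 ± 0.17.

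*Gys2*, the liver form of glycogen synthase, was scarce, at 0.140 to 2.16 TPM against 434 to 600.4 TPM for *Gys1*. It was at 0.193, 0.656, 0.933 and 0.724 CPM in WT and at 0.832, 2.45, 3.01 and 2.91 CPM in C2-/- muscle, with 3 of 4 C2-/- mice above all WT mice and C2-/- 1 among them. Its fold change was 3.65 with a 95% interval from 1.71 to 7.79 (edgeR, unadjusted p = 0.00333, adjusted p = 0.608), and DESeq2 alone of the tools called it, with an adjusted p of 0.0488. The 5 adipocyte markers summed to 6.01, 21.1, 12.5 and 22.8 CPM in WT and to 10.4, 33.5, 40.4 and 22.4 CPM in C2-/- muscle, and their part in the *Gys2* level was not tested. In bulk muscle, fewer cells of a type and less mRNA per cell cannot be told apart.

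*Slc16a7*, a monocarboxylate transporter, was close to the detection level, at 0.308, 0.146, 0.411 and 0.326 CPM in WT and at 0.568, 0.483, 0.532 and 0.658 CPM in C2-/- muscle (log2 fold change 0.91 ± 0.38, edgeR, unadjusted p = 0.039, adjusted p = 0.919). *Gpd1l*, a relative of the cytosolic glycerol phosphate dehydrogenase, was at 51.5, 62.0, 57.6 and 55.3 CPM in WT and at 33.1, 43.8, 40.5 and 57.3 CPM in C2-/- muscle, where C2-/- 4 lay among the WT mice (log2 fold change −0.37 ± 0.16, edgeR, unadjusted p = 0.0418, adjusted p = 0.919). Without WT 2 both lost the unadjusted threshold, with 0.69 for *Slc16a7* and −0.32 for *Gpd1l* (edgeR, unadjusted p = 0.0937 and 0.0800), and so they did without C2-/- 3, with 0.94 and −0.33 (edgeR, unadjusted p = 0.0618 and 0.101).

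With all 8 mice, the other lists held no further gene with an unadjusted p under 0.05. These were 11 tested genes of glycogen targeting and debranching, 12 of the pyruvate dehydrogenase complex with its kinases and phosphatases, 8 of the pentose phosphate pathway and 16 regulators of glycolytic genes such as *Hif1a* and the subunits of AMP-activated kinase. Their median log2 fold changes were 0.01, −0.05, −0.05 and 0.03. *Ppp1r3c*, a gene of glycogen targeting, was at 459, 328, 560 and 291 CPM in WT 1 to 4. In C2-/- 1 to 4 it was at 161, 110, 517 and 180 CPM. Its log2 fold change was −0.76 ± 0.43 (edgeR, unadjusted p = 0.108, adjusted p = 0.968). Without C2-/- 3 it was −1.44 ± 0.26 (edgeR, unadjusted p = 0.000405, adjusted p = 0.366). In that setting 4.48% of all tested genes had an unadjusted p under 0.05.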

How the data were processed

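TA muscle RNA of 4 WT and 4 C2-/- mice was sequenced with 1 library per mouse, from mRNA enriched with oligo(dT) beads, on a DNA nanoball platform. Per the labels and the study's methods, reads were aligned to GRCm38.p6 with HISAT, while the labels also name Bowtie2 and the methods name featureCounts. The deposited table gives expected counts per gene, which the authors did not normalize, and 5.50% to 6.53% of the values of a library were not whole, so that they were rounded for the tests. It also holds the authors' TPM values, scaled by length, used here for levels between genes and for isoenzyme shares, and FPKM and the authors' own group averages and DESeq2 log2 fold changes with p-values, which were not used. Of 16687 rows, 16686 had a gene ID, and 25 symbols were restored from it.

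All tested genes were fitted together with edgeR 4.0.16 (R 4.3.3), by its quasi-likelihood test with TMM factors (0.929 to 1.03), its default filter, and p-values adjusted by Benjamini-Hochberg. The rule for a call was an adjusted p under 0.05 and a change over 1.5-fold. Errors of log2 fold changes are standard errors, and intervals are 95%. Replicates are different mice. Shares were compared by two-sided exact permutation tests over every split of the mice, with Benjamini-Hochberg adjustment in SciPy 1.17.1. Alternatives were RLE factors, library totals alone or without the 50 most counted genes, limma-voom (limma 3.58.1) with and without sample quality weights, DESeq2 1.42.0, no filter, at least 10 counts in every library, the replicate block, near-identical copies summed (BLAST+ 2.17.0, at least 95% identity over at least 300 bases of GENCODE M21 transcripts) and leaving out each mouse. The tests were checked on simulated counts. Gene coordinates and promoter sequences are those of RefSeq on GRCm38.p6, matched by gene ID for all 35 members.

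The members, the pathway and marker lists and the tests were chosen with earlier results of these data known. Values in every mouse were to be given for the most abundant isoenzyme of each step, the member with the smallest p of each role, members and pathway genes with an unadjusted p under 0.05, and *Mybpc2*, and 1 of these pathway genes is not reported here. *Ugp2*, *Gbe1*, *Gys1*, *Ldhb*, *Pfkfb3*, *Phka1*, *Pgk1*, *Gaa*, *Pfkfb4* and *Ppp1r3c* fall outside this rule and were described after their values were seen.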

Additional observations from a re-analysis of the deposited data

Results flagged for a closer look

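Among 94 groups of 4 mice that were looked at, 5 held a mouse whose gap to the nearest of the others passed Dixon's 95% critical value for 4 samples as a share of the range of its group, and chance marks about 1 group in 20. *Eno2* was lowest in C2-/- 3, at 1.454 CPM, against 1.802 to 1.854 CPM in the other C2-/- mice. *Pgm2* was highest in C2-/- 3, at 1682 CPM, against 1263 to 1292 CPM in the others. *Pfkfb4* was lowest in C2-/- 1, at 44.57 CPM, against 58.29 to 60.14 CPM. *Gys1* was lowest in WT 4, at 955.1 CPM, against 1110.3 to 1139.7 CPM in the other WT mice. The share of *Pgam2* in the phosphoglycerate mutase mRNA was lowest in WT 2, at 99.357%, against 99.66% to 99.71% in the other WT mice.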

How the results depend on the processing

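No member was called in any of the 18 alternative settings. With an unadjusted p under 0.05 the count of members was 0 in the report, 1 with limma-voom and sample quality weights (*Eno2*), 2 with the replicate block (*Gbe1* and *Gyg*), and between 0 and 2 when 1 mouse was left out: *Aldoc* without WT 1, *Eno2* without WT 2, *Gyg* and *Pygb* without WT 3, and *Gbe1* without WT 4. Of the pathway genes DESeq2 called 1, *Gys2*, and their count with an unadjusted p under 0.05, 6 in the report, lay between 2 (without C2-/- 2) and 8 (without WT 3), with 3 without C2-/- 4. Of all tested genes 4 were called in the report, 38 with DESeq2, and between 4 and 7 when 1 mouse was left out, with 7 without WT 2. The *Aldoa* share differed by 0.00026 to 0.000742 percentage points over the settings that left out 1 mouse, with an exact permutation p of 0.0286 without WT 1. The *Pygm* share differed by −0.00885 to −0.00443 points, with an exact permutation p of 0.0286 without WT 3. That is the smallest p that 3 mice against 4 allow, and the adjusted p was 0.2 for both. Shares taken from CPM in place of TPM gave no exact permutation p under 0.114. The cause of these changes was not tested.

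The numbers 1 to 4 of the labels name different mice. The correlation of same-numbered deviations lay between −0.0507 and 0.267 and was over 0.1 for 1 of 4 pairs, WT 1 with C2-/- 1. Of the 8 libraries, 2 correlated best with their own number. Whether mice with the same number shared more than the number cannot be decided from these correlations. The paired fit with the replicate block called no member. Up to 9 of the 34 members changed the sign of their log2 fold change in a setting (without WT 2), none of which had been called. With 4 mice a genotype the median standard error of 0.17 limits what can be seen, and *Eno2*, *Pygb*, *Pgm1*, *Pfkp* and *Aldoc*, all with means under 5 CPM, are limited by their counts as well.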
